A study of Mus musculus with 6 samples.

Results

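The comparison described here is between mouse macrophages that received Dex late in an 8 h lipopolysaccharide (LPS) treatment and macrophages that received 8 h of LPS alone. It uses 4 of the 6 DNase-seq libraries of the series, 2 in each group, chosen by their titles. Hotspots of the 4 lists were merged wherever they overlapped by at least 1 bp, which gave 57556 regions, and the 26412 regions that all 4 libraries listed (45.9%) carry the comparisons of signal and width. The other 2 libraries, from cells given Dex before LPS, appear only as values beside named regions.

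All cells were primary macrophages derived from bone marrow of C57BL/6J mice, and every group received LPS, so neither untreated cells nor cells given Dex without LPS enter the comparison. The labels state neither the dose of Dex nor the hour at which it was added in the late group, and they do not say whether replicates came from separate animals or cultures. The spread and the p-values therefore measure the difference between these libraries, which may be technical. Genome positions are in mm9, for which no gene annotation was used, so regions are given by position alone, and markers of macrophages or other cells could not be checked.

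LPS, a component of the bacterial outer membrane, is sensed by Toll-like receptor 4 and activates NF-kB and AP-1, transcription factors that bind enhancers and promoters of inflammatory genes. Dex, the glucocorticoid of the study, acts through the glucocorticoid receptor, which then moves to the nucleus, binds DNA at regulatory elements and is known both to induce genes and to restrain inflammatory ones. Regulatory elements bound by such factors are less protected by nucleosomes. DNase I cuts them readily, and clusters of cuts appear as hotspots. In the deposited lists each hotspot has a maximum tag density (MaxD), which is used here as its signal, and the distance from its start to its end gives its width.

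The lists differed in length. Late replicates 1 and 2 listed 29347 and 44447 hotspots, and LPS replicates 1 and 2 listed 48084 and 51834. The means were 36897 ± 10677 and 49959 ± 2652 (SD, n = 2 each), and the lists covered 29.8 ± 9.03 and 42.4 ± 2.64 Mb. Neither late list reached the length of either LPS list (two-sided exact permutation p = 0.33, the lowest value possible with 2 libraries a group). Late replicate 1 stood apart, since its list was the shortest and also began at the highest z-score, 11.6, against 7.98 to 8.98 in the other lists. Of its own regions, 95.9% were among the shared regions, against 62.1% for late replicate 2 and 56.6% and 52.1% for the LPS libraries. Total tag numbers are not given in the files, so the depth behind a value is unknown.

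Presence or absence in the lists went with their lengths. The lengths differed between the groups, so length and treatment cannot be told apart here. After the regions listed by all 4, the largest class held 10152 regions (17.6%) that every library except late replicate 1 listed. Regions listed by both LPS libraries and neither late library numbered 5473, 9.51% of all regions, and regions listed by both late libraries and neither LPS library numbered 328, or 0.57%. Without late replicate 1, that is with late replicate 2 alone against both LPS lists, the same classes held 5798 and 2473 regions. They held 15625 and 387 without late replicate 2, 11361 and 482 without LPS replicate 1, and 8680 and 497 without LPS replicate 2. The stronger 50% of each list gave 2671 and 137. Cutting every list to its strongest 29347 hotspots gave 1424 and 1086. LPS-only regions outnumbered late-only ones in each of these settings, by the least with lists of equal length. A region missing from a list is below that list's threshold, which does not show that its chromatin was closed.

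**Figure D1:**
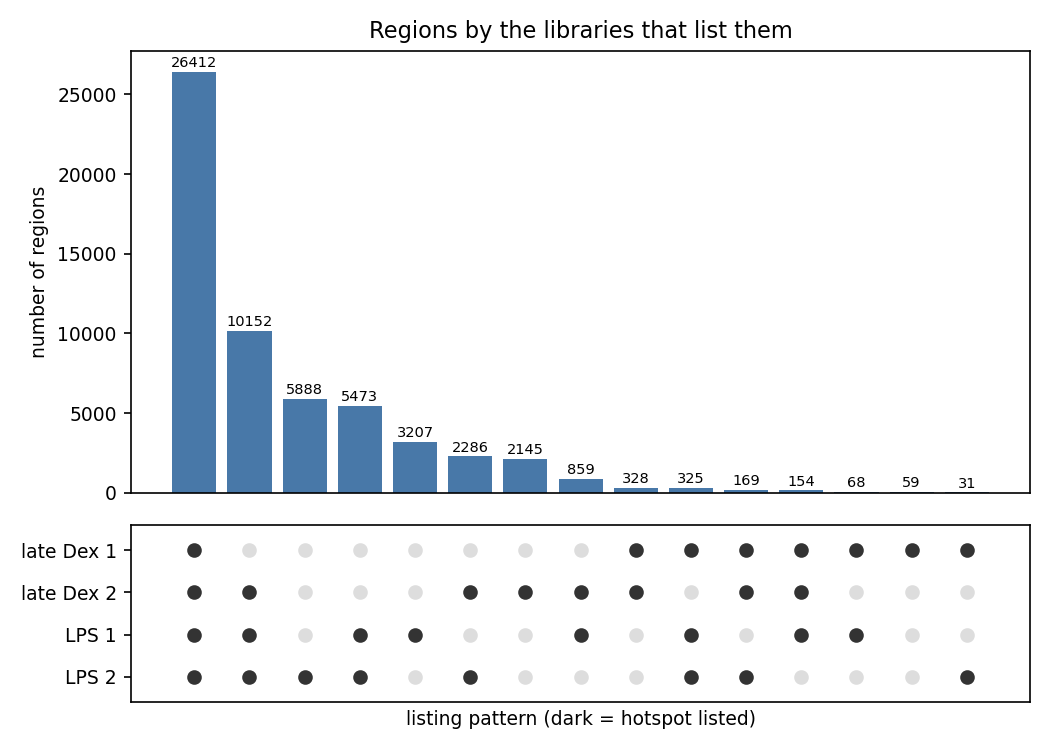
Number of merged regions (y axis) for each combination of libraries that list them, with dark dots marking the libraries that list a hotspot. The 26412 regions listed by all 4 libraries form the highest bar, and the 10152 regions missing only from late replicate 1 form the next.

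For the comparison of signal, the same 26412 shared regions were ranked by MaxD in each library and given a percentile from 0 to 100. Ranks were alike throughout: Spearman correlations between libraries across the 26412 regions ran from 0.856 to 0.925, and late replicate 1 correlated at 0.914 with LPS replicate 1 and at 0.900 with late replicate 2. Regions are not independent replicates, so these are descriptions. The difference between the group means, late minus LPS, had an SD of 10.5 percentile points across regions, and the middle 90% of regions lay between -16.97 and 16.97 points. Between single libraries, the SD of the difference was 12.9 points for the late replicates and 11.2 points for the LPS replicates. For a late library against an LPS library it was 12.004, 13.1, 13.5 and 15.5 points in the 4 possible pairs.

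With limma, 0 of the 26412 regions passed an adjusted p of 0.05 (percent called 0% in each direction), and the smallest adjusted p was 0.340. At an unadjusted p under 0.05, limma gave 997 regions higher with late Dex (3.77%) and 890 lower (3.37%), together 7.14% of the regions tested. The count of calls depended on the scale of the ranks. Normal scores in place of percentiles gave 71 regions higher and 5 lower, and log2 MaxD gave 5 higher and 0 lower. Leaving out LPS replicate 1 gave 27 and 11, leaving out LPS replicate 2 gave 24 and 4, and leaving out either late library gave 0 and 0. The regions named next are accordingly given by their values, not as changes that passed the test.

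The sizes of the differences were uneven between the directions. Groups did not overlap where both late libraries lay on the same side of both LPS libraries. This held in 4475 regions with late Dex higher (16.9%) and in 4763 with late Dex lower (18%). With 2 libraries a group, such separation is frequent also where groups do not differ, so these shares alone show no difference. Among the regions so separated, 867 were higher by over 20 points (3.28%) and 792 lower by over 20 points (3%). The directions were thus nearly even at that size. Counts over 20 points were 1338 higher and 1160 lower without late replicate 1, 1417 and 1562 without late replicate 2, 1508 and 1491 without LPS replicate 1, and 1070 and 904 without LPS replicate 2. Over 40 points, 113 were higher (0.428%) and 20 lower (0.0757%), and over 60 points 18 were higher and 1 was lower. Leaving out late replicate 1 gave 179 and 43 regions over 40 points, late replicate 2 115 and 77, LPS replicate 1 131 and 80, and LPS replicate 2 134 and 26. The unevenness turned round under percentiles taken within each library's whole list, where 172 regions were higher and 4221 lower by over 20 points, and 23 were higher and 234 lower by over 40 points. On that scale the median shared region stood at the 53.2nd percentile in late replicate 1, at 69.0 in late replicate 2, and at 71.8 and 73.9 in the LPS libraries. These medians followed the order of the list lengths, and whether length made the reversal was not tested. The rule that set this comparison named the whole-list scale. The counts on both scales hold only regions listed by all 4 libraries. Regions below the threshold of late replicate 1, such as the 10152 that only it did not list, are left out. How far this filter shaped the unevenness was not tested.

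**Figure D2:**
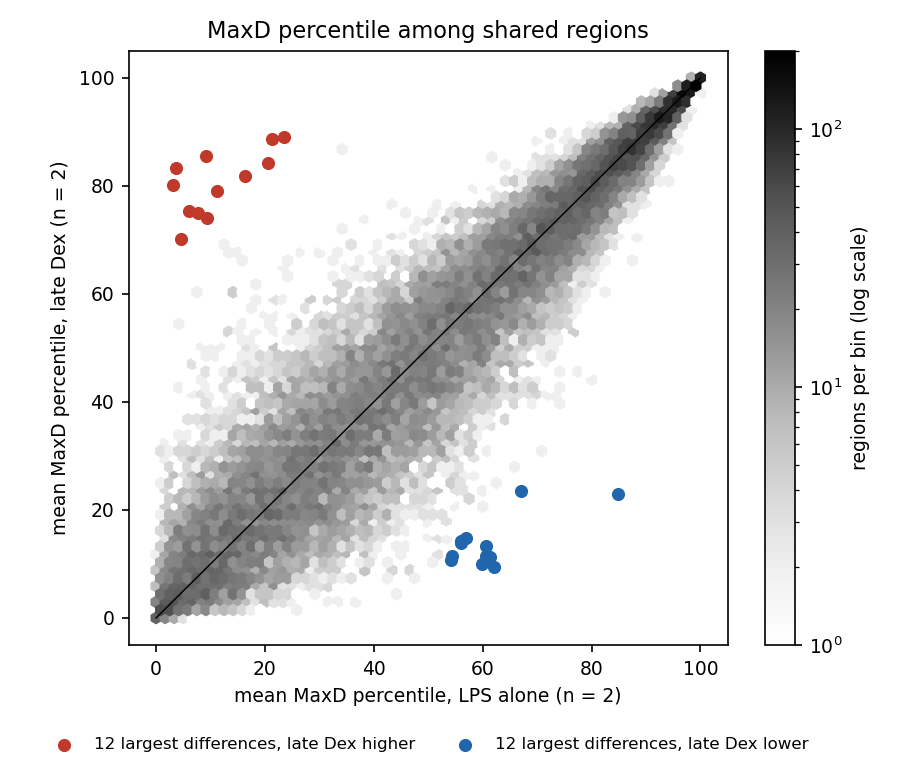
Mean MaxD percentile of each shared region with late Dex (y axis) against LPS alone (x axis), 2 libraries in each mean, with grey hexagons for the number of regions per bin on a log scale. The 12 named regions farthest above the diagonal reach 79.6 points, and the 12 farthest below reach -61.8 points.

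The widest separation was at chr1:161818491-161820275. Its MaxD was 34.8 and 43.4 in late replicates 1 and 2 and 7.02 and 6.25 in LPS replicates 1 and 2. These are densities on the scale of the deposited files. In percentiles it stood at 78.0 and 88.6 with late Dex and at 5.14 and 2.32 with LPS alone, a difference of 79.6 points (SE 9.86, limma adjusted p = 0.340). It thus lay among the weakest shared regions in both LPS libraries and among the stronger ones in both late libraries. Hotspots there spanned 1131 and 1784 bp with late Dex and 700 and 782 bp with LPS alone. In the 2 pre-treated lists its MaxD was 28.8 and 36.1.

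A pair of neighbouring regions on chromosome 9 came next in size of difference and in ninth place. At chr9:48552709-48553826 the percentiles were 76.7 and 83.7 with late Dex and 2.44 and 3.81 with LPS alone, a difference of 77.1 points (SE 9.58), with MaxD of 33.2 and 37.2 against 6.02 and 6.94. At chr9:48547947-48548904 the percentiles were 67.6 and 72.8 against 2.44 and 6.75, a difference of 65.6 points (SE 9.28). Both were near the bottom of the shared regions in the LPS libraries. Surroundings within 25 kb were described at only some of the named regions. Within 25 kb of this pair, 2 further regions were listed by both late libraries and neither LPS library. Their MaxD was 15.2 and 17.7 at chr9:48531471-48532385 and 11.2 and 14.6 at chr9:48541688-48542743. In the pre-treated lists the MaxD of the first region of the pair was 45.3 and 31.5.

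Other regions of this set are given by their values. At chr4:140827223-140828413 the MaxD was 42.0 and 42.5 with late Dex and 8.70 and 7.98 with LPS alone, and the percentiles differed by 76.4 points (SE 9.57). At chr3:50540519-50541972 it was 29.6 and 31.4 against 7.69 and 7.29, and the percentiles differed by 69.1 points (SE 9.45). On the same chromosome, chr3:50124540-50125612 had 34.0 and 40.3 against 8.03 and 11.8, 65.6 points apart (SE 10.3). Groups that did not overlap in percentile were a condition for entering this set, so the separation of these regions is no separate result.

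At chr5:32387723-32388838 the MaxD was 29.6 and 38.5 with late Dex and 8.36 and 9.37 with LPS alone, 67.8 points apart (SE 9.95). At chr1:130511097-130512515 it was 45.2 and 50.9 against 10.7 and 11.5, 67.3 points apart (SE 8.99). Also on chromosome 1, chr1:80491701-80494056 had 23.6 and 38.5 against 8.03 and 7.98, 67.2 points apart (SE 10.7). Its late percentiles, 65.0 and 84.9, lay farther from each other than in the other 11 regions of this set.

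The remaining 3 of the 12 were chr10:120072613-120073734, chr16:52094432-52096427 and chr9:121480619-121481673, higher by 65.6, 64.6 and 63.7 points. The first had the highest late percentiles of the 3 in replicate 1, with MaxD of 50.8 and 47.4 with late Dex against 12.4 and 10.8. In all 12 regions the late percentiles lay between 65.0 and 92.4 and the LPS percentiles between 2.32 and 28.2. Both pre-treated libraries listed all 12, with MaxD from 24.3 to 49.0. Of all 26412 shared regions, pre-treated replicates 1 and 2 listed 25275 and 26151, so nearly any shared region was listed there.

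In the other direction the widest separation was at chr3:138183704-138185187. Its MaxD was 9.60 and 13.3 in late replicates 1 and 2 and 40.5 and 41.0 in the LPS replicates, and its percentiles were 18.2 and 27.7 against 81.9 and 87.7, a difference of -61.8 points (SE 9.34, limma adjusted p = 0.340). It was the single region lower by over 60 points with groups not overlapping. Its hotspots spanned 428 and 1088 bp with late Dex and 1422 and 1429 bp with LPS alone. The MaxD in the pre-treated lists was 10.3 and 8.73.

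Next came chr2:24159744-24160874, with MaxD of 8.80 and 7.97 against 21.1 and 24.3 and a difference of -52.7 points (SE 9.51). Neither pre-treated library listed it. Within 25 kb lay 3 other shared regions, whose late means were lower by values from -28.9 to -7.55 points. Surroundings were not alike across this set. Within 100 kb of the 12 regions, 39 other shared regions had a lower late mean and 11 a higher one. At chr1:90939270-90940206 all 3 such neighbours had a higher late mean. At chr11:26501500-26502771 the MaxD was 8.00 and 10.2 against 21.7 and 22.9, a difference of -50.0 points (SE 9.17). At chr1:54062599-54063607 it was 9.20 and 7.53 against 24.1 and 20.1, also -50.0 points apart (SE 9.52), and again neither pre-treated library listed the region.

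Of the other 8, chr1:90939270-90940206 differed by -49.1 points, with MaxD of 7.20 and 11.1 against 23.1 and 21.2. The region chr15:27853169-27854161 followed at -47.3 points, with 7.60 and 11.5 against 23.7 and 20.8. At chr8:117831037-117832277 the late replicates differed from each other, with percentiles of 5.75 and 41.1 against 58.7 and 75.2 in the LPS libraries, and the SE was 13.8 points. Among the 12 it had the largest SE. The last 5, from -43.3 to -41.8 points, lay at chr11:94568700-94570747, chr15:67898072-67898738, chr16:21630485-21631380, chr13:45934913-45935951 and chr2:126188582-126189834. Over all 12 the late percentiles ran from 4.06 to 41.1 and the LPS percentiles from 43.4 to 87.7. These regions thus stood in the lower and middle ranks with late Dex. Apart from the region on chromosome 3, the highest LPS percentile was 75.2, at chr8:117831037-117832277.

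**Figure D3:**
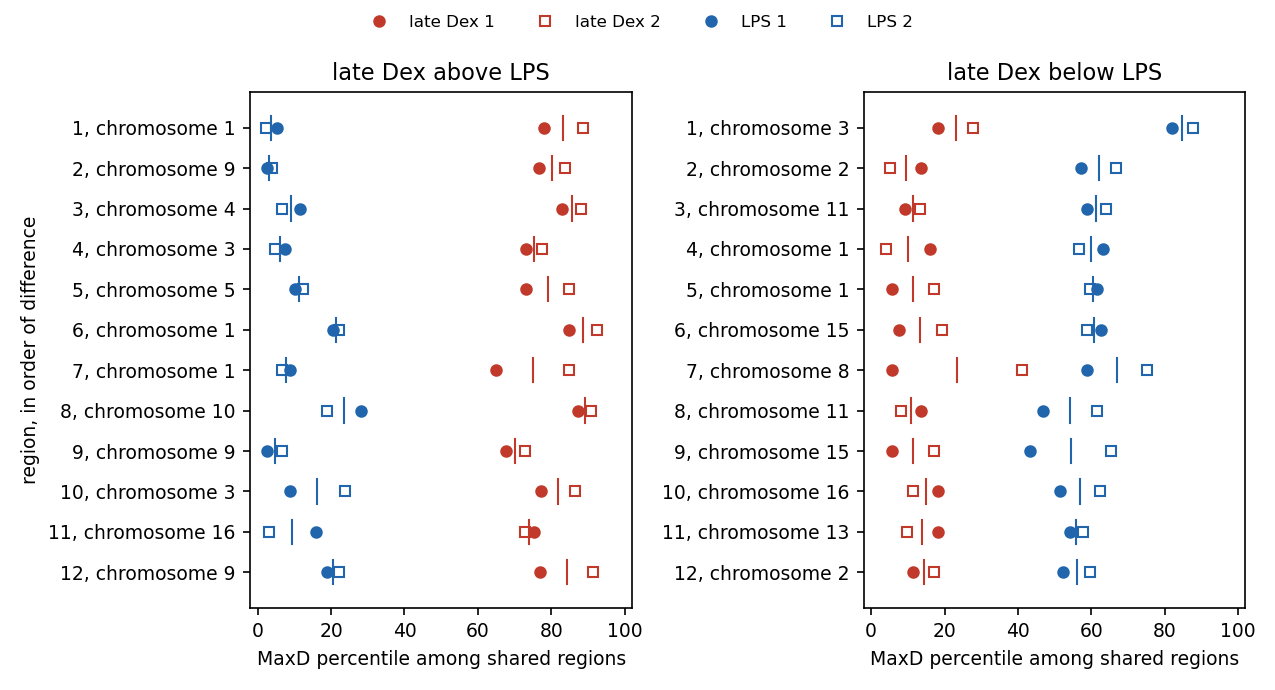
MaxD percentile among shared regions (x axis) in each of the 4 libraries for the 12 named regions with late Dex above LPS (left) and the 12 below (right), with vertical ticks at group means and regions ordered by the difference. Late values lie between 65.0 and 92.4 on the left and between 4.06 and 41.1 on the right.

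Differences over 20 points were counted by the strength of the region. Of the 5978 shared regions with a mean percentile over the 4 libraries from 20 to 40, 431 were higher and 402 lower by over 20 points with groups not overlapping. Of the 5054 regions above the 80th percentile, 1 was higher and 1 lower. The SD between the late replicates was 16.4 points in the first of these classes and 6.60 points in the second. Percentiles are bounded and the classes were formed from the same 4 libraries, so a mean near either end of the scale leaves less room for a difference. By chromosome, the share of shared regions higher by over 20 points ran from 1.38% on the X chromosome to 4.89% on chromosome 12, leaving aside the Y chromosome with 0 of 52.

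The 5 strongest shared regions whose group means differed by under 1 point were chosen for that, and are given as values. At chr17:39979675-39985937 the MaxD was 649 and 724 with late Dex and 591 and 679 with LPS alone, and the hotspots spanned 6260, 6151, 6144 and 6256 bp. At chr1:197067439-197068423 it was 545 and 719 against 576 and 674. The other 3, chr19:61275190-61276107, chr11:108872615-108873710 and chr11:3023492-3024423, had MaxD between 248 and 674. All 5 stood at percentiles between 99.98 and 100 in every library. Densities this far above the median of shared regions, which lay between 16.8 and 18.6, were not examined for repeated sequence.

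Width was compared on a log2 scale after centring each library on its median over the shared regions. The centring matters, because the median width was 747.5 and 917 bp in late replicates 1 and 2 and 971 and 1009 bp in the LPS libraries. In uncentred bp the late hotspots were narrower, with groups not overlapping, in 14992 regions (56.8%) and wider in 526 (1.99%). After centring the split turned to 7414 wider (28.1%) and 5312 narrower (20.1%). The centred difference still rose with the strength of the region. Its median was -0.173 log2 in regions with a mean percentile up to 20 and 0.107 in those above 80. Centring on 1 median per library thus left a trend with strength, whose cause was not tested.

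With limma on centred widths, 0 regions passed an adjusted p of 0.05 (percent called 0%), and the smallest adjusted p was 0.0623. At an unadjusted p under 0.05, limma gave 1055 regions wider (3.99%) and 1765 narrower (6.68%) with late Dex. Restricting the test to regions with a mean percentile above 25 gave 56 wider and 81 narrower at an adjusted p of 0.05. Without late replicate 2, limma gave 306 and 2075, without LPS replicate 1 54 and 52, and without LPS replicate 2 59 and 59. Without late replicate 1 it gave 0 and 7. The number of width calls thus depended on which library was left out.

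The smallest width p belonged to chr11:94568700-94570747, one of the 12 regions with the lower late signal. Its hotspots spanned 340 and 376 bp with late Dex and 2035 and 1879 bp with LPS alone, a centred log2 difference of -2.19 (limma adjusted p = 0.0623). Its percentiles were 13.5 and 8.04 with late Dex and 46.7 and 61.5 with LPS alone. It was named for its rank, not for its width.

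Width and signal went together across regions. Over the 26412 shared regions the differences in rank and in centred width had a Pearson correlation of 0.473, given as a description, since both come from the same hotspots and libraries. Among the 286 regions higher by over 30 points, 280 (97.9%) had a wider late mean, with a median log2 difference of 0.61. Among the 172 lower by over 30 points, 10 (5.81%) had a wider late mean, with a median of -0.39. Over all shared regions 54.2% were wider. The regions of these sets were chosen on rank in the same 4 libraries, so the counts describe them and are no independent support.

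**Figure D4:**
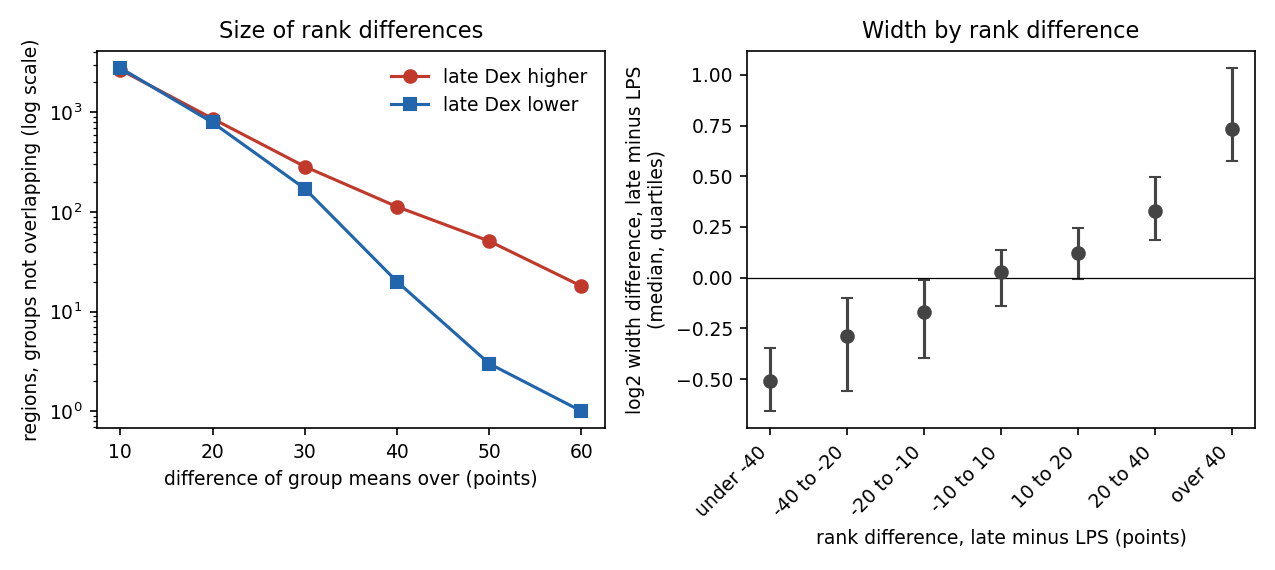
Left, number of shared regions (log scale) whose groups do not overlap and whose means differ by more than the points on the x axis, 113 higher and 20 lower at 40 points. Right, median and quartiles of the centred log2 width difference (y axis) in classes of rank difference (x axis), with a median of 0.73 where late Dex was higher by over 40 points and -0.51 where it was lower by over 40.

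Shared regions close to those with large differences leaned the same way. Within 100 kb of the 286 regions higher by over 30 points lay 1370 other shared regions, of which 65.1% had a higher late mean rank, with a median difference of 2.90 points. Near the 172 regions lower by over 30 points lay 821, of which 35.7% had a higher late mean, with a median of -2.71 points. Over all shared regions the share was 48.9%. Near the higher regions the share was 70.4% at gaps up to 2 kb, 73.0% at 2 to 10 kb, 66.9% at 10 to 50 kb and 59.9% at 50 to 100 kb. Near the lower regions it was 30.2%, 21.6%, 37.7% and 37.9% in the same order, so it did not change steadily with distance. Neighbours share the same libraries, and no test was run on these shares.

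**Figure D5:**
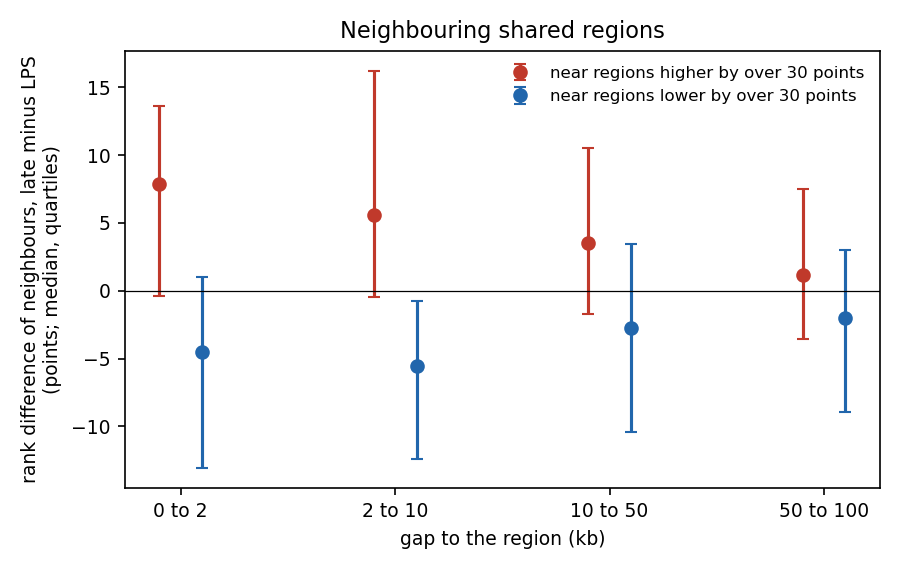
Rank difference, late minus LPS (y axis, median and quartiles), of shared regions lying at the given gap (x axis, kb) from regions higher (red) or lower (blue) by over 30 points. The medians were 7.84 and -4.49 points up to 2 kb, 5.56 and -5.58 points at 2 to 10 kb and 1.19 and -2.02 points at 50 to 100 kb.

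Some of the regions listed by late libraries alone were strong. At chr7:117259759-117261207 the MaxD was 46.8 and 50.9 in the late replicates, and neither LPS library listed a hotspot. At chr4:132519172-132520268 it was 34.0 and 39.9, at chrX:157041751-157043125 30.4 and 36.3, and at chr19:23130883-23132619 34.8 and 28.8. Both pre-treated libraries listed all 8 named regions of this class, with MaxD from 21.0 to 62.6. The share that they listed of the whole class is not given here. Within their own lists these 8 regions, chosen for the highest mean percentile there, stood between the 71.3rd and 95.5th percentile. Over all 328 regions of the class the median of that mean was 36.1. It lay above 50 in 74 regions (22.6%).

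The other 4 were chr11:82896030-82896970, chr1:13444243-13445319 and, 752 bp from each other, chr17:28652525-28653732 and chr17:28654484-28655888. The chromosome 17 pair belongs to a run that was chosen for description after its values were seen. Within 25 kb of the pair, 7 regions were listed by at least 1 of the 4 libraries, 3 by both late libraries alone, the pair included, and 3 by all 4. The late mean rank was higher in all 3 shared regions, by 58.3 points at chr17:28650137-28651392, 60.02 points at chr17:28659343-28661416 and 25.4 points at chr17:28664639-28665505. The MaxD at the first of these was 38.8 and 46.5 with late Dex and 13.4 and 11.5 with LPS alone. Single limma adjusted p-values there were no lower than 0.340.

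Among regions listed by both LPS libraries alone, 5 of the 8 strongest lay close to each other on chromosome 11, from chr11:3026979-3027395 to chr11:3098827-3099397. These were narrow, from 319 to 866 bp, and 4 of the 5 lay 70 to 238 bp from a region that other libraries listed, and whether the lists divided one stretch into hotspots differently was not tested. Their z-scores ran from 9.17 to 13.5, where the 2 LPS lists begin at 7.98 and 8.35. The other 3 had z-scores from 15.6 to 25.8. Of the 8 regions, pre-treated replicates 1 and 2 listed 4 and 6, and the share that they listed of the whole class is not given here.

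The regions chr13:5816212-5817009 and chr13:5785889-5786864, were 2 of those 3. Their MaxD in LPS replicates 1 and 2 was 29.4 and 19.4 at the first and 18.7 and 29.2 at the second. Within 25 kb of the pair, a stretch chosen for description after its values were seen, 14 regions were listed by at least 1 library. Both LPS libraries alone listed 7 of them, the pair included, and the 5 listed by all 4 had a lower late mean rank, by between -23.7 and -4.64 points. The last named region of this class was chr12:88172990-88173815, with MaxD of 23.7 and 20.8.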

How the data were processed

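The deposited data are 1 hotspot list per library, called separately. The submitters' processing notes name CASAVA and the build mm9. Which aligner and caller were used, and with which settings, is not given in the sources used here. Per the file headers, the deposited signal values are maximum (MaxD) and average (AveD) tag densities, the deposited score is a z-score, and a deposited p-value for each hotspot was not used. Whether starts count from 0 or 1 is not stated, and positions are printed as deposited. In every library MaxD was a whole multiple of a step between 0.334 and 0.443 in 100% of hotspots (within 0.1 of a step), so the densities were scaled; how is not stated.

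Hotspots of the 4 lists were merged with pandas 2.3.3 (Python 3.11.15) at an overlap of 1 bp. A library's highest MaxD in a region was used, and width was the length its hotspots cover there. Shared-region percentiles and centred log2 widths were tested with limma 3.58.1 (R 4.3.3), with a mean trend, over all 26412 shared regions, with Benjamini-Hochberg adjustment at 0.05. The fit was first run on simulated ranks with planted differences, with the noise taken from the same 4 libraries. Its outcome is not given here, so the size of difference that it can call remains unstated. List lengths were compared by exact permutation.

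Named regions are the 12 largest rank differences in each direction whose groups do not overlap, since none passed the threshold; the 8 regions listed by late or by LPS libraries alone with the highest mean whole-list percentile; and the 5 strongest shared regions differing by under 1 point. Named widths and genes had rules too, but no width passed, and the gene rule needed an mm9 annotation, so gene lists and cell type markers were not applied. The comparison, its members and lists were chosen with earlier results of these data known. Alternatives covered the ranking, the signal, a filter on weak regions, merging of hotspots up to 500 bp apart, regions with 1 hotspot per library, the replicate number as a block, list length, and each library left out in turn.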

Additional observations from a re-analysis of the deposited data

How the results depend on the processing

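The count of regions past an adjusted p of 0.05 was 0 in each direction for rank with AveD, the z-score, whole-list percentiles, merging up to 500 bp, 1 hotspot per library or limma without the mean trend. Normal scores gave 71 higher and 5 lower, log2 MaxD 5 higher, and a mean percentile above 25 gave 3 higher; leaving out 1 library gave 0 to 27 higher and 0 to 11 lower. Replicate numbers are shared between the groups, but no label says that they pair libraries. With the replicate number as a block, rank gave 106 higher and 36 lower and width 26 wider and 47 narrower. Across regions, replicate 1 minus replicate 2 in the late group was set against the same difference in the LPS group. The correlation was 0.365 for rank and 0.115 for width. Regions over 40 points apart numbered 23 higher and 234 lower with whole-list percentiles and 33 lower with the z-score, and 115 to 179 higher and 26 to 80 lower without single libraries. At an unadjusted p under 0.05, whole-list percentiles gave 88 higher and 2022 lower, log2 MaxD 1044 and 741, and uncentred width 122 wider and 3337 narrower.

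Width calls were 18 wider and 15 narrower with 1 hotspot per library, 56 and 81 above a mean percentile of 25, and 0 to 306 wider and 7 to 2075 narrower without single libraries. Late-only regions numbered 1086 with lists of equal length, 137 in the stronger 50% of each list and 387 to 2473 without single libraries; LPS-only regions numbered 1424, 2671 and 5798 to 15625. With 1 library left out, its group holds 1 sample, which is assumed to vary like the other group. The differences in hotspot number and covered length kept their sign, at -4241.5 hotspots and -8.84 Mb from a common minimum z-score of 11.6 and from -20612 to -5512 hotspots and -19.0 to -6.21 Mb without single libraries. Of 333 values of the 24 regions named for rank under these alternatives, 0 turned direction. The 24 were chosen for large differences with groups not overlapping in the same 4 libraries. Their direction was largely fixed by that choice, so it is no independent support. The cause of these movements was not tested. Depth is unknown, so no counting error could be given.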
